A study of Mus musculus with 16 samples.

Results

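The contractile apparatus of smooth muscle was represented by 10 genes, *Acta2*, *Actg2*, *Tagln*, *Cnn1*, *Cald1*, *Tpm1*, *Tpm2*, *Lmod1*, *Myh11* and *Myl9*, which were followed through a gain-of-function experiment in mouse brown adipocytes. The members were the rows of the deposited count table that carry these symbols, 10 of 54347 genes. The cells were wt1-SAM, immortalized brown preadipocytes with a stable CRISPRa SAM system, in which guides bring a dead Cas9 and activators to a promoter. All 16 libraries came from this line, differentiated in medium with rosiglitazone, T3, dexamethasone, insulin, indomethacine and IBMX, reverse transfected at day 4 with 250 ng of plasmid and harvested at day 7. In the 4 groups, the plasmid was either the sgRNA vector without a guide (empty vector cells) or the vectors with guides 2 and 7 against the long noncoding RNA *Gm15551* (sgRNA cells), and the cells were either left as control or stimulated for 24 h with 1 µM isoproterenol, a β-adrenergic agonist. Replicate numbers 3, 4, 5 and 6 occurred once in each group. No source stated that the libraries came from separate cultures, so the p-values measure the spread between these samples. Values below are in that order of replicate numbers unless stated otherwise.

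In smooth muscle, thick filaments of myosin pull on thin filaments built of smooth muscle actin, along which tropomyosin, caldesmon and calponin lie and regulate the contact with myosin. Contraction starts when myosin light chain kinase phosphorylates the regulatory light chain. Many genes of this apparatus are transcribed under serum response factor (SRF) and its coactivators of the MRTF and myocardin family, which bind a short element called the CArG box. Several members are not restricted to muscle. α-Smooth muscle actin and transgelin are also made by myofibroblasts and cultured mesenchymal cells, and caldesmon and the tropomyosins have nonmuscle forms made from the same genes, which values per gene cannot separate.

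The CArG box is the sequence feature that ties these genes to SRF, so the upstream windows were searched for it. RefSeq promoter windows on GRCm38.p6 were at hand for 7 of the 10 members in 8 entries, for *Acta2*, *Cnn1*, *Myl9*, *Cald1*, *Tpm1*, *Tpm2* and *Lmod1*. The 250 bases before each start were searched on both strands for CC, 6 inner bases that are A or T with at most 1 exception, and GG, a pattern of 10 bases. Boxes occurred in 2 of the 7 members, *Acta2* and *Myl9*, against 8.59% of all 32851 windows of the same length. The 4 boxes are shown because *Acta2* is among the members that varied most between libraries and *Myl9* carries the strict form of the box while being barely detected. Capitals mark the box, and 10 bases are given on each side.
Acta2 box 1, chr19:34255438-34255467, minus strand: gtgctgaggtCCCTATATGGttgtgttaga
Acta2 box 2, chr19:34255388-34255417, minus strand: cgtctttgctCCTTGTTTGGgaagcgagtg
Myl9 box 1, chr2:156775293-156775322, plus strand: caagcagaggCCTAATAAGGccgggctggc
Myl9 box 2, chr2:156775355-156775384, plus strand: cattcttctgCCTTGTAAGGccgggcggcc
The first base of the *Acta2* boxes lay 84 and 34 bases before the RefSeq start, within an exon of another annotated transcript of the gene, and that of the *Myl9* boxes 161 and 99 bases before it. Only *Myl9* box 1 had no G or C among the inner bases, a strict form held by 1.47% of all windows. A match is a string of letters, and binding was not measured.

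Total counts ranged from 9053521 to 16546187 per library, and a single ribosomal RNA gene, *CT010467.1*, took between 11.7% and 51.8% of them. *Gm15551* had 3 to 18 counts per library in empty vector control cells and 19 to 56 in sgRNA control cells, and 0 to 5 against 13 to 26 after isoproterenol. The summed CPM (counts scaled to library size after TMM normalization) of 8 adipocyte markers lay between 12498 and 27203 in every library, so adipocyte transcripts were abundant throughout. Of 13 smooth muscle and mural markers outside the members, 7 were too low to be tested, with *Kcnj8* at 0 counts over all 16 libraries, *Itga8* at 1, *Rgs5* at 5, *Kcnmb1* at 11, *Abcc9* at 26 and *Ppp1r14a* and *Myocd*, the muscle-restricted SRF coactivator, at 48 each. The other 6 were detected, with 7040 counts for *Mcam*, 1706 for *Des*, 1374 for *Notch3*, 1051 for *Smtn*, 782 for *Pdgfrb* and 576 for *Cspg4*.

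On GRCm38 with GENCODE M21, all 10 are protein-coding genes, and their values are Salmon estimates per gene. *Acta2* lies at chr19:34241090-34255590 on the minus strand with 10 merged exons, and *Actg2* at chr6:83512905-83536265 on the minus strand with 11. *Tagln* lies at chr9:45929619-45936058 (minus, 5 exons), *Cnn1* at chr9:22099216-22109630 (plus, 8) and *Cald1* at chr6:34598500-34775473 (plus, 16). *Tpm1* lies at chr9:67022590-67049406 (minus, 13 exons), *Tpm2* at chr4:43514711-43523765 (minus, 9) and *Lmod1* at chr1:135324807-135368065 (plus, 3). The myosin genes are *Myh11* at chr16:14194535-14291372 (minus, 43 exons) and *Myl9* at chr2:156775420-156781658 (plus, 4).

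The members differed widely in level, and on average over all libraries the tropomyosins stood at the top per kilobase of exon. Per kilobase of exon, the mean over 16 libraries was 8.88 CPM ± 1.52 (SD) for *Tpm1* and 8.17 ± 2.90 for *Tpm2*, which did not differ beyond their spread. *Acta2* followed with 3.84 ± 3.91 CPM per kb and *Cald1* with 3.76 ± 1.33, which also overlapped. This order depends on the divisor, the exons merged over all annotated transcripts of a gene. It was 12041 bp for *Cald1*, 6485 for *Tpm1*, 2909 for *Tpm2* and 2196 for *Acta2*. Without it the means were 57.6 CPM for *Tpm1*, 45.2 for *Cald1*, 23.8 for *Tpm2* and 8.43 for *Acta2*. The place of *Acta2* changed with the replicate number. In replicate 6 its mean of 9.87 CPM per kb stood beside 9.42 for *Tpm1* and above 6.71 for *Tpm2*, and in replicate 4 its 0.781 was below the 3.60 of *Cald1*. *Tagln* was lower at 0.680 ± 0.704, then came *Myl9* at 0.245 ± 0.231 and *Myh11* at 0.230 ± 0.0985. The lowest were *Lmod1* at 0.0949 ± 0.0753, *Actg2* at 0.0813 ± 0.0865 and *Cnn1* at 0.0469 ± 0.0403 CPM per kb, again with overlapping spreads. Nonmuscle relatives, given for scale, spanned a wider range in CPM per kb, with 345.6 for *Actb*, 98.5 for *Tpm4*, 42.1 for *Tagln2*, 10.9 for *Tpm3*, 5.02 for *Cnn2*, 4.87 for *Myh10* and 0.0031 for *Myh14*. Because salmon divides reads that fit several transcripts, the low values of *Acta2* and *Actg2*, which belong to a family of similar actin genes, are uncertain. How reads were divided among the actin genes was not examined.

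**Figure D1:**
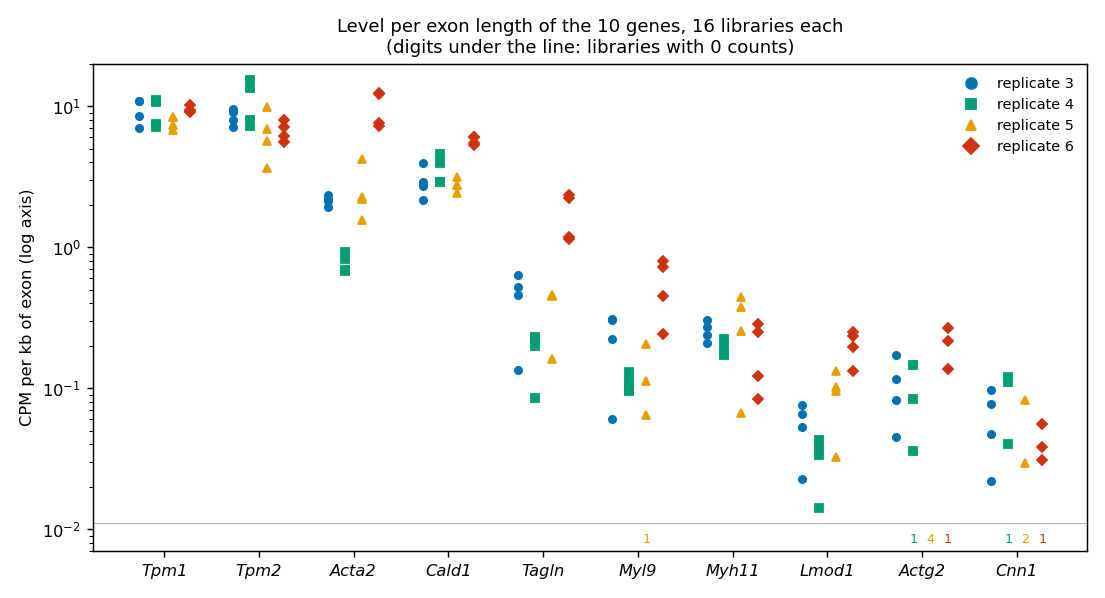
Level of each of the 10 genes in CPM per kilobase of exon on a log axis, with 1 point per library and colour and shape for the replicate number. Points of *Acta2*, *Tagln* and *Cald1* from replicate 6 lie above all others of the same gene, and the digits under the line count the libraries with 0 counts.

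Of the 10 members, 6 passed the filter on low counts and were tested, namely *Acta2*, *Tagln*, *Cald1*, *Tpm1*, *Tpm2* and *Myh11*. The other 4 had too few reads. *Actg2*, the enteric smooth muscle actin, had 25 counts in all and was at 0 in 6 of 16 libraries. *Cnn1*, the smooth muscle calponin that restrains the myosin ATPase, had 27 counts and was at 0 in 4 libraries. *Myl9*, the regulatory light chain, had 57 counts and was at 0 in 1 library. *Lmod1*, the leiomodin that nucleates actin filaments in smooth muscle, had 74 counts and was seen in every library. A count of 0 allows up to 3 counts, which is between 0.166 and 0.390 CPM depending on the library, and this limit covers counting error only. The summed counts of these 4 genes over the 4 libraries of a group did not separate the groups at this depth, with 13 to 15 for *Myl9*, 15 to 23 for *Lmod1*, 4 to 12 for *Cnn1* and 4 to 9 for *Actg2*. By replicate number, *Lmod1* had 11, 8, 15 and 40 counts and *Myl9* 13, 8, 5 and 31, so that replicate 6 held the most of both. *Cnn1* had 8, 11, 4 and 4 counts, and *Actg2* 8, 6, 0 and 11.

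For *Acta2*, *Tagln* and *Cald1*, differences between replicate numbers were larger than those between conditions. *Myh11* and *Tpm1* did not follow this. Their fitted log2 ranges between numbers were 0.66 and 0.30, and their averaged isoproterenol effects −0.75 and 0.35 with the number in the fit. *Acta2*, α-smooth muscle actin, had 4.81, 2.04, 9.22 and 27.3 CPM in empty vector control cells of replicates 3, 4, 5 and 6, and 4.64, 1.49, 4.83 and 15.9 CPM in stimulated empty vector cells. In sgRNA cells it had 5.11, 1.52, 5.01 and 26.8 CPM in control and 4.26, 1.81, 3.44 and 16.7 CPM in stimulated libraries. Every library of replicate 6 was above each of the other 12, and replicate 4 was the lowest in every group. *Tagln*, the actin-bundling transgelin, was likewise highest in replicate 6 and lowest in replicate 4, with 0.903, 0.394, 0.909 and 4.47 CPM in empty vector control and 1.03, 0.443, 0.891 and 2.27 CPM in stimulated empty vector cells. It had 1.26, 0.456, 0.898 and 4.64 CPM in sgRNA control and 0.267, 0.170, 0.320 and 2.33 CPM in stimulated sgRNA cells, where the first 3 libraries rest on 3, 3 and 4 counts. *Cald1*, caldesmon, had 32.7, 35.1, 29.1 and 64.3 CPM in empty vector control and 47.4, 55.6, 33.3 and 72.7 CPM in stimulated empty vector cells. Its sgRNA libraries gave 26.1, 35.1, 33.2 and 66.2 CPM in control and 34.8, 47.8, 38.04 and 72.5 CPM after isoproterenol, so that replicate 6 was again above the other 12. Such a separation was seen in 693 tested genes, 5.27% of the 13150.

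In a fit with group and replicate number, edgeR's quasi-likelihood F test of the number called 4 of the 6 tested members, that is with an adjusted p under 0.05 and a range between the 4 numbers over 0.5 on the log2 scale. The same call was made for 31.7% of the 13150 tested genes. The fitted range was 3.61 (12.2-fold, adjusted p = 6.81e-09) for *Acta2*, 3.20 (9.21-fold, adjusted p = 2.89e-06) for *Tagln* and 1.04 (2.05-fold, adjusted p = 6.67e-06) for *Cald1*, each highest in replicate 6. *Tpm2* had a range of 0.73 (adjusted p = 0.0208) and was highest in replicate 4. *Tpm1* (0.30, adjusted p = 0.0634) and *Myh11* (0.66, adjusted p = 0.305) were not called by this edgeR test. Without replicate 6 the range fell to 1.63 for *Acta2* (edgeR, adjusted p = 0.00081), 1.18 for *Tagln* (0.0380) and 0.35 for *Cald1* (0.0509), so *Cald1* was no longer called. *Tpm2* was not called without replicate 4 (0.40, edgeR, adjusted p = 0.19) or with the share of *CT010467.1* as a covariate (0.27, adjusted p = 0.228). The 4 libraries of a number may share a culture or a day, and the labels do not say what a number stands for.

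**Figure D2:**
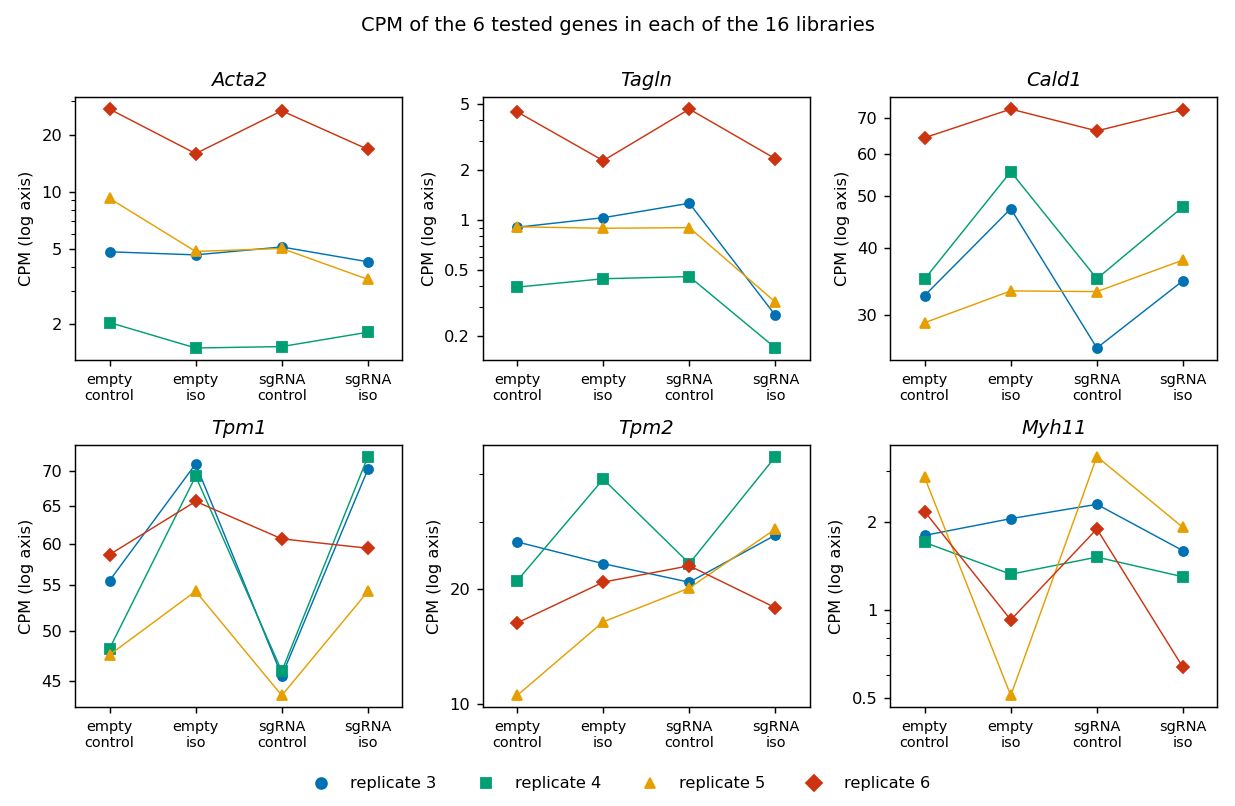
CPM of the 6 tested genes in every library on a log axis of its own for each gene, by group, with a line joining the 4 libraries of a replicate number. Replicate 6 is highest throughout for *Acta2*, *Tagln* and *Cald1*, and stimulated libraries lie mostly above their controls for *Tpm1* and below them for *Myh11*.

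Over the 16 libraries, *Acta2* and *Tagln* were the most alike of the 15 pairs of tested members, with a Pearson r of 0.91 between their log2 CPM values. *Cald1* had an r of 0.52 with *Acta2*, 0.55 with *Tagln* and 0.62 with *Tpm1*. *Tpm2* ran against *Acta2* (r = −0.57) and *Tagln* (r = −0.53), and *Myh11* was near 0 with both (−0.016 and −0.022). These r values describe 16 libraries that share replicate numbers and depth. The tested genes closest to *Acta2*, of 12104 with a mean of at least 1 CPM, were *Ccn1* (r = 0.95), *Bgn*, *Pcdh19*, *Ssbp2*, *S100a4*, *Cnn2*, *Lox*, *Gm5039*, *Tsc22d3* and *Ccbe1* (0.92). Among these, biglycan (*Bgn*) and lysyl oxidase (*Lox*) are matrix genes, and their mean levels in replicate 6 were 117 and 78.3 CPM against 34.1 and 13.4 CPM in the other libraries. The mean profile of the 6 tested members gave other names, led by *Gnai3* (r = 0.92), *Ndc80* (0.91) and *Atg4a* (0.89), followed by *Ttc8*, *Zfp809*, *Smim15*, *Sgo1*, *Ifi211*, *Slc38a4* and *Smc4* (0.87).

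Markers of other cells differed between the numbers as well. The summed CPM of 10 fibroblast and myofibroblast markers was 54.0, 47.6, 91.7 and 245.2 in replicates 3, 4, 5 and 6, with 230.4 to 252.3 in the libraries of replicate 6 and no more than 98.6 elsewhere. All 6 tested genes of that list were called and highest in replicate 6, among them periostin (*Postn*) with a range of 5.99 and the collagen genes *Col1a1* (2.96) and *Col1a2* (3.06), while *Thy1*, *Lum*, *Dcn* and *Fap* had 4 to 27 counts in all. The 13 smooth muscle and mural markers summed to 55.4, 52.8, 70.2 and 74.5 CPM, of which *Mcam* alone made up 35.5 CPM on average. All 6 tested genes of that list were called, with a median range of 1.63, and 3 were highest in replicate 6. The largest ranges were those of *Cspg4* (2.63, highest in replicate 5) and *Pdgfrb* (2.27, highest in replicate 6). The 6 preadipocyte markers summed to 26.6, 37.7, 11.0 and 61.1 CPM, of which *Ly6a* made up 30.2 CPM on average. *Ly6a* was called and highest in replicate 6 (range 3.02). *Pi16* was called and highest in replicate 5 (1.56), and *Pdgfra* was not called (0.76). The sum of the adipocyte markers was lowest in replicate 6, with 24126, 24427, 21014 and 15602 CPM. *Fabp4* made up 14462 and *Lpl* 3960 CPM of it on average. The 7 brown adipocyte markers summed to 325.1, 264.7, 479.3 and 306.3 CPM, of which *Elovl3* made up 267.3 CPM on average, and were highest in replicate 5. The part of these differences in the levels of *Acta2*, *Tagln* and *Cald1* was not tested, and in bulk RNA fewer cells of a type and less RNA per cell cannot be told apart.

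Genes around the contractile apparatus were compared between the numbers from lists fixed with earlier results known. Of SRF and its coactivators, 4 of 8 tested genes were called, all highest in replicate 6, namely *Tgfb1i1* (range 1.56), *Fhl2* (1.41), *Elk3* (1.19) and *Mrtfa* (0.60). *Srf* itself, named although it was not called, had a range of 0.16 (edgeR, adjusted p = 0.37). Of the other actin, tropomyosin, calponin, transgelin and myosin genes, 6 of 13 were called, led by *Cnn2* (2.14, highest in replicate 6) and *Acta1*, skeletal actin (1.27, highest in replicate 5), and 3 of the 6 were highest in replicate 6. Of the genes that regulate contraction, 7 of 13 were called, with *Rock1* (0.95) and *Ppp1r12c*, a myosin phosphatase subunit (0.74), in front, and 3 of the 7 were highest in replicate 6. Of the stress fibre, dense body and focal adhesion genes, 15 of 28 were called and 12 of these were highest in replicate 6. The largest ranges were those of *Synm* (1.60, highest in replicate 5) and the integrin *Itga5* (1.44, replicate 6). *Des* (1.30, replicate 3) and α-actinin 1 (*Actn1*, 1.24, replicate 6) came next. Of the SRF, YAP and TGF-β targets, 13 of 15 were called, with *Postn* (5.99), *Ccn2* (2.76), *Fn1* (2.18), *Ankrd1* (2.09) and *Ccn1* (1.68) the largest, and 7 of the 13 were highest in replicate 6. Over all tested genes 31.7% were called, and 35.9% of these 4174 genes were highest in replicate 6. The median range was 1.31 in the target list and between 0.45 and 0.61 in the other 4, against 0.45 over all tested genes.

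Isoproterenol was then compared with control, averaged over both plasmids. In the fit of the 4 group means no member was called, against 2.65% of the tested genes (adjusted p under 0.05 and a log2 fold change beyond 0.5). *Tpm1* alone passed on the adjusted p, as 4.49% of the tested genes did (2.06% higher and 2.43% lower). It was 0.35 higher on the log2 scale (SE 0.11, 1.27-fold, edgeR quasi-likelihood test, adjusted p = 0.0395) in 7 of 8 pairs. *Tpm1* had 55.5, 48.2, 47.5 and 58.7 CPM in empty vector control and 71.0, 69.2, 54.3 and 65.6 CPM in stimulated empty vector cells. In sgRNA cells the values were 45.5, 45.9, 43.6 and 60.6 CPM in control and 70.2, 72.1, 54.3 and 59.5 CPM after stimulation, and the groups overlapped in each plasmid. *Tpm1* did not pass with no filter on low counts (0.33, edgeR, adjusted p = 0.0991) or with total counts without TMM (0.23, adjusted p = 0.707). Its adjusted p stayed under 0.05 in 5 of 20 fits that left out a library or a number, those without empty vector control replicate 6, stimulated empty vector replicate 5, sgRNA control replicate 6, stimulated sgRNA replicate 5 or replicate 6 altogether (log2 fold change 0.27 to 0.45 over the 20).

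The libraries of a replicate number deviated together, so the fit with the number as a block is given beside it. There, 5 of the 6 tested members passed, 2 higher and 3 lower, while 21.3% of all tested genes passed (10.9% higher and 10.4% lower), and 3 members (*Acta2*, *Tagln* and *Myh11*) were called, against 5.7% of all genes. With the share of *CT010467.1* as a further covariate the 3 called were *Acta2*, *Tagln* and *Tpm2* (0.61), and *Myh11* did not pass (−0.66, adjusted p = 0.0933 in edgeR). In DESeq2 with the block, *Acta2* passed but was not called (−0.49, adjusted p = 0.0107). Tropomyosin 1 (*Tpm1*, 0.35, SE 0.09, adjusted p = 0.00185 in edgeR) and caldesmon (*Cald1*, 0.35, SE 0.10, adjusted p = 0.00546) were higher after isoproterenol, in 7 and 8 of 8 pairs. The actin *Acta2* (−0.50, SE 0.16, adjusted p = 0.0137 in edgeR), transgelin (*Tagln*, −0.81, SE 0.27, adjusted p = 0.0173) and the myosin heavy chain *Myh11* (−0.75, SE 0.28, adjusted p = 0.0417) were lower, in 7, 6 and 7 of 8 pairs. *Tpm2* gave 0.39 (SE 0.17, adjusted p = 0.0718 in edgeR) and was higher in 6 of 8 pairs. Without the block the same quantities were −0.61 for *Acta2*, −0.85 for *Tagln*, −0.77 for *Myh11*, 0.33 for *Cald1* and 0.43 for *Tpm2*, with adjusted p between 0.143 and 0.708 in edgeR. The median over the 6 was −0.08 with the block, against 0.0028 over all tested genes.

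**Figure D3:**
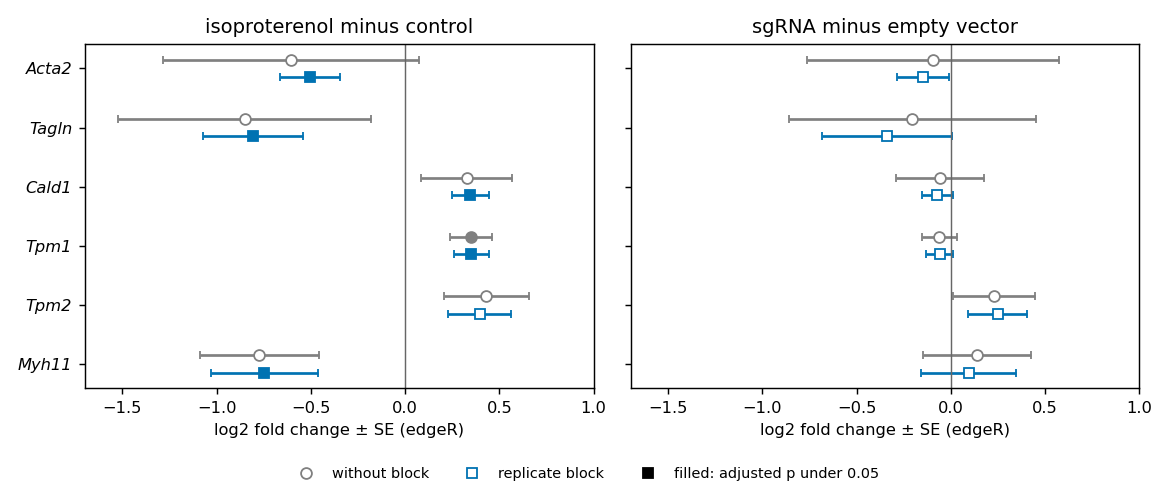
Log2 fold change from edgeR, with a standard error derived from its test, for the averaged isoproterenol effect (left) and the averaged sgRNA effect (right). Values are shown for the fit without a block and the fit blocked on replicate number. Filled symbols have an adjusted p under 0.05, which applies to 1 gene without and 5 with the block on the left and to 0 genes on the right.

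*Myh11*, the smooth muscle myosin heavy chain and the member most restricted to muscle among the 6, had 1.81, 1.71, 2.86 and 2.18 CPM in empty vector control and 2.06, 1.33, 0.509 and 0.925 CPM in stimulated empty vector cells. Its sgRNA libraries had 2.31, 1.52, 3.37 and 1.90 CPM in control and 1.60, 1.30, 1.92 and 0.636 CPM after isoproterenol. The stimulated minus control difference was largest in replicates 5 and 6, at −2.18 and −1.11 log2 units in the empty vector pairs and −0.76 and −1.38 in the sgRNA pairs, and the groups overlapped. The lowest values rest on 4 and 9 counts. *Tpm2* had 26.6, 21.02, 10.5 and 16.3 CPM in empty vector control and 23.3, 38.9, 16.4 and 20.9 CPM in stimulated empty vector cells. In sgRNA cells it had 20.8, 23.3, 20.1 and 23.0 CPM in control and 27.7, 44.5, 28.8 and 17.9 CPM after isoproterenol, with the highest levels in the stimulated libraries of replicate 4.

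**Figure D4:**
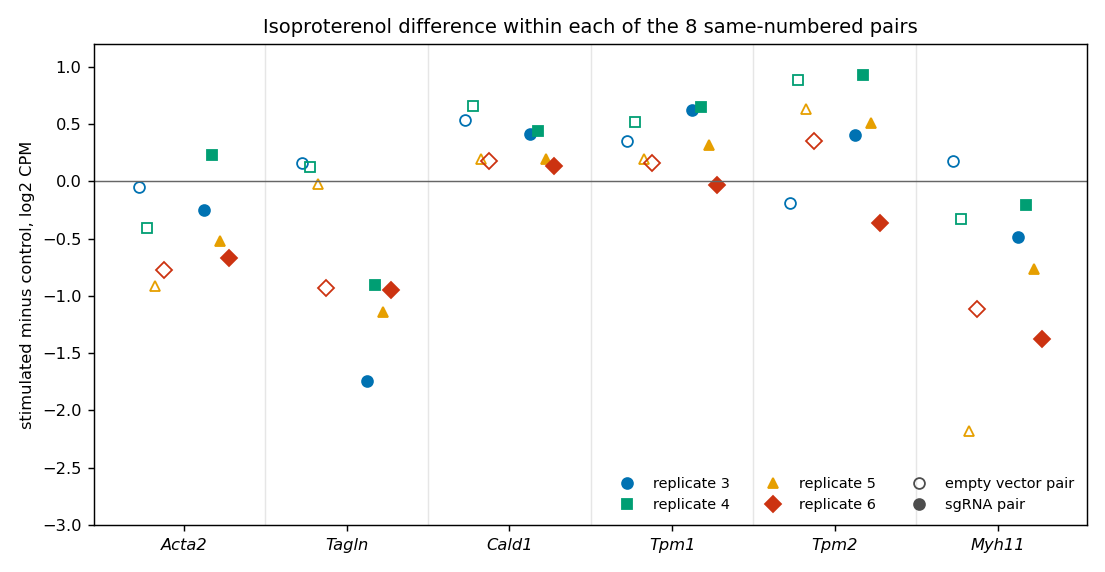
Difference in log2 CPM between the stimulated and the control library of each of the 8 same-numbered pairs, with open symbols for empty vector and filled symbols for sgRNA pairs. All 8 pairs are above 0 for *Cald1*, 7 for *Tpm1* and 6 for *Tpm2*, and 7 are below 0 for *Acta2* and *Myh11*.

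In the blocked fit, which members passed changed with single libraries left out. Without replicate 6 altogether, *Acta2* was at −0.36 (edgeR, adjusted p = 0.216) and *Tagln* at −0.80 (0.0748), and 2 members passed in place of 5. Leaving out single libraries, *Acta2* no longer passed without stimulated empty vector replicate 6 (−0.43, adjusted p = 0.0563 in edgeR) and without sgRNA control replicate 6 (−0.41, 0.0595). In 4 further fits, without empty vector control replicate 5, sgRNA control replicate 3 or stimulated sgRNA replicate 5 or 6, and also without replicate 5 altogether, *Acta2* still passed but was not called, at −0.499 to −0.421. *Tagln* no longer passed without empty vector control replicate 6 (−0.75, adjusted p = 0.0519 in edgeR), stimulated empty vector replicate 6 (−0.62, 0.0693) or replicate 3 altogether (−0.79, 0.0602), and *Cald1* without replicate 4 (0.27, 0.0655). *Myh11* passed in 5 of 20 such fits, those without empty vector control replicate 3, stimulated empty vector replicate 3 or 4, sgRNA control replicate 4 or replicate 3 altogether, with values from −0.96 to −0.57. *Tpm2* passed in 4 of 20, those without empty vector control replicate 3, sgRNA control replicate 6, stimulated sgRNA replicate 6 or replicate 3 altogether. Its values ran from 0.19 without replicate 4 to 0.52. It was called without empty vector control replicate 3 and without replicate 3 altogether. *Tpm1* passed in all 20 (0.27 to 0.44), and each of the 6 kept its sign in all 20. Without the block, *Acta2* turned to 0.043 without sgRNA control replicate 6.

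Within the arms 0 of 6 members passed in the fit without the block. Of all tested genes, 0.913% passed and 0.829% were called in empty vector cells, and 0.722% passed and 0.7% were called in sgRNA cells. In each arm 1 member, *Tpm1*, had an unadjusted p under 0.05 in edgeR. So did 1332 of the 13150 tested genes in empty vector cells and 1112 in sgRNA cells. DESeq2 without the block passed 0 members. In neither arm were the 4 stimulated libraries all above or all below the 4 controls for a tested member, a separation seen in 1.94% (above) and 2.14% (below) of the genes with the empty vector and 3.63% and 3.6% with the guides. With the block, *Cald1* passed in empty vector cells (0.40, SE 0.13, edgeR, adjusted p = 0.0340), where 9.57% of all genes did, higher in 4 of 4 pairs, and 0 of 6 members were called against 4.47%. *Acta2* gave −0.60 (adjusted p = 0.0602 in edgeR) and was lower in 4 of 4 pairs there. *Cald1* passed in 12 of 20 fits with a library or number left out, and did not pass without empty vector control replicate 3, 4 or 5, stimulated empty vector replicate 3 or 4, or all libraries of replicate 3, 4 or 6 (0.31 to 0.48 over the 20). In sgRNA cells, where 8.4% passed and 3.9% were called, *Tagln* was lower (−1.32, SE 0.39, edgeR, adjusted p = 0.0147, 4 of 4 pairs, the 1 member called) and *Tpm1* higher (0.39, SE 0.12, adjusted p = 0.0192, 3 of 4 pairs). *Tagln* passed in 13 of 20 such fits, and did not pass without sgRNA control replicate 3 or 6, stimulated sgRNA replicate 3 or 5, or all libraries of replicate 3, 4 or 5 (−1.77 to −1.14 over the 20). *Tpm1* also passed in 13, and did not pass without replicate 3 or 4 of either sgRNA group, or all libraries of replicate 3, 4 or 5 (0.30 to 0.53). The difference between the arms was tested as an interaction, which called 0 genes of 13150 in edgeR with or without the block (199 and 52 genes at an unadjusted p under 0.05), while DESeq2 called 3 genes with and 0 without the block, none of them a member. For *Tagln*, whose pairs in empty vector cells gave 0.16, 0.12, −0.02 and −0.93 and in sgRNA cells −1.74, −0.91, −1.14 and −0.95 log2 units, the interaction was −1.03 with the block (95% interval −2.16 to 0.10).

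Neighbouring genes moved in both directions under isoproterenol, as did the tested genes as a whole. With the block, 10.9% of all tested genes passed higher and 10.4% lower. In the blocked fit 2 of 8 SRF genes were higher and 0 lower, with *Elk3* at 0.68 (edgeR, adjusted p = 0.00086) and *Srf* at 0.10 (0.335). Among genes that regulate contraction 3 of 13 were higher and 1 lower. *Mylk*, the kinase that phosphorylates the regulatory light chain, was higher by 0.66 (edgeR, adjusted p = 3.81e-05, and 0.00143 without the block). Of the other actin and myosin genes 3 of 13 were higher and 2 lower, among the latter the nonmuscle heavy chain *Myh10* at −0.54 (edgeR, adjusted p = 0.00049). Of the stress fibre and adhesion genes 9 of 28 were higher and 8 lower. Smoothelin (*Smtn*, 0.64) and the integrin *Itga5* (0.62) rose with the block, and synemin (*Synm*, −0.77), caveolin 1 (*Cav1*, −0.64) and *Itga1* (−0.62) fell. *Cav1* and *Itga1* also passed without the block, with adjusted p of 5.26e-05 and 0.0138 in edgeR. Of the SRF, YAP and TGF-β targets 3 of 15 were higher, with fibronectin (*Fn1*, 0.61) the largest, and 1 lower. The medians of the 5 lists lay between −0.10 and 0.11, against 0.0028 over all tested genes. Without the block, 0 of 8, 1 of 13, 2 of 13 and 6 of 28 passed in either direction, in the order SRF, contraction, other actin and myosin, and stress fibre. Over all tested genes 4.49% passed in that fit.

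Cell markers were compared in the same way, again beside 10.9% of all tested genes passing higher and 10.4% lower with the block. In the blocked fit, 6 of 8 adipocyte markers were lower and 0 higher (3 lower without the block), and their summed CPM was 23568 ± 4903 (SD, n = 4) in empty vector control and 18029 ± 4436 in stimulated empty vector cells, against 23660 ± 2558 and 19912 ± 4686 in sgRNA cells. The preadipocyte markers summed to 29.9 ± 23.1 and 53.0 ± 29.8 CPM in empty vector and to 18.3 ± 12.7 and 35.1 ± 20.7 CPM in sgRNA cells. *Ly6a* made up most of that sum (30.2 CPM on average) and was the 1 of 3 tested preadipocyte markers that passed with the block (1.09, edgeR, adjusted p = 4.92e-06), while 0 passed without it. The fibroblast and myofibroblast markers gave 112.3 ± 93.7 and 105.9 ± 86.4 CPM, and 108.9 ± 93.6 and 111.2 ± 96.4 CPM, with 1 of 6 higher and 2 lower with the block and 0 passing without it. The smooth muscle and mural markers gave 67.3 ± 11.1 and 66.4 ± 17.3 CPM, and 61.2 ± 9.10 and 57.9 ± 8.78 CPM. Of their 6 tested genes 3 were higher with the block, *Notch3* (0.90), *Smtn* (0.64) and *Des* (0.49), 1 was lower, *Mcam* (−0.45), and 0 passed without it. The part of these markers in the members' differences was not tested.

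No tested member was called for the guides against *Gm15551*, averaged over both treatments. The log2 fold changes of sgRNA minus empty vector cells without the block ran from −0.21 for *Tagln* (95% interval −1.49 to 1.08) to 0.23 for *Tpm2* (−0.20 to 0.66). Across all 13150 genes edgeR called 0 (0%), with 437 genes at an unadjusted p under 0.05, and DESeq2 called 10 genes, none of them a member. In both edgeR fits the unadjusted p of every tested member was over 0.05. With the block, 0 of 6 were called against 0.266% of all genes (0.586% passed), and the smallest adjusted p was 0.55 in edgeR, for *Tpm2* (0.25, 95% interval −0.06 to 0.56). The blocked intervals were narrow for *Tpm1* (−0.20 to 0.08) and *Cald1* (−0.23 to 0.09) and wider for *Acta2* (−0.42 to 0.12), *Myh11* (−0.40 to 0.59) and *Tagln* (−1.02 to 0.34). Within control or stimulated cells 0 of 6 members passed in edgeR or DESeq2, blocked or not, and no unadjusted p in edgeR was under 0.05. With the block, 0.0304% of all genes were called and 0.038% passed in control cells, and 0.122% were called and 0.137% passed in stimulated cells. The lowest value was that of *Tagln* in stimulated cells, −0.86 with the block (95% interval −1.82 to 0.11, edgeR, adjusted p = 0.736), lower in 3 of 4 pairs. The share of *CT010467.1* differed between the plasmids, with 29.0% ± 12.8 (SD, n = 4) and 36.8% ± 12.8 in control and stimulated empty vector cells against 19.1% ± 1.11 and 21.1% ± 7.18 in sgRNA cells. With that share as a covariate the sign of the sgRNA effect turned for *Acta2* (0.73), *Tagln* (0.47) and *Tpm2* (−0.32), with adjusted p between 0.753 and 0.893 in edgeR.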

How the data were processed

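RNA of the 16 libraries was sequenced by the authors as paired 50 bp reads after NEBNext Ultra II preparation. Per their notes, the authors used bcl2fastq and cutadapt and quantified with Salmon on GRCm38, against GENCODE M22 with or without RNAcentral transcripts (which of these is not stated for this series). They deposited estimated counts per gene as whole numbers. Tool versions and use of strand are not given in the sources used here. The 10 genes and the lists were chosen with earlier results of these data known.

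From these counts, edgeR 4.0.16 in R 4.3.3 fitted its quasi-likelihood model to the 4 group means, after TMM scaling and a filter (filterByExpr, minimum count 10, minimum total 15) that kept 13150 of 54347 genes. Fits were made across all of these genes with Benjamini-Hochberg adjustment. A gene passed with an adjusted p under 0.05, and was called with a log2 fold change beyond 0.5 as well. The pass without the fold bound was added after the data were seen. CPM uses TMM library sizes, log2 CPM a prior count of 2, and CPM per kb the merged exons of GENCODE M21. The edgeR test gives no standard error, so each was derived from the log2 fold change with the F value or the p. The larger result was taken. The 95% intervals are normal intervals from these standard errors and so restate the test.

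Libraries of the same replicate number deviated together (24 pairs, r between 0.22 and 0.61, against a median of −0.21 for pairs that shared neither number nor group), so the number, given by the labels, was taken to pair them. The fit with it as a block is printed where it changes a call of a member. The other alternatives were DESeq2 1.42.0, no filter, total counts without TMM, *CT010467.1* removed or its share as a covariate, and each library or number left out. Every member was named. List genes were named when called, at most 5 per list and comparison, by size, and 1 such gene is not reported here. The scripts were tested on simulated data.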

Additional observations from a re-analysis of the deposited data

Results flagged for a closer look

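*Tpm1* stood out in a single library. In sgRNA control cells replicate 6 had 60.6 CPM, while the other 3 libraries of that group had 43.6 to 45.9 CPM, a gap beyond Dixon's 95% value for 4 samples. Of 24 sets of 4 libraries looked at (6 genes in 4 groups), 1 was singled out, and chance does this for about 1 in 20 groups. Without that library the averaged isoproterenol effect on *Tpm1* passed with and without the replicate block.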

How the results depend on the processing

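The counts of members moved with the replicate block and with the covariate for ribosomal RNA, and so did the counts over all tested genes. For the averaged isoproterenol effect, members called went from 0 to 3 with the block, 3 with the block and the ribosomal RNA share as covariate, 2 with the block in DESeq2 and 1 with the covariate alone, and members passing from 1 to 5, 5, 6 and 2. The members called were *Acta2*, *Tagln* and *Myh11*, then *Acta2*, *Tagln* and *Tpm2*, then *Tagln* and *Myh11*, and *Tpm2*. Of all 13150 tested genes, those called went from 349 to 749, 730, 722 and 485 in the same order of settings. Those passing went from 590 to 2799, 2536, 2736 and 879. With no filter or with total counts without TMM, 0 members passed, against 563 of 34821 and 251 of 13150 genes. In empty vector cells, members passing went from 0 to 1 with the block, 3 with block and covariate, 2 with the block in DESeq2 and 1 with the covariate, and members called to 2 with block and covariate (*Acta2* and *Tpm2*) and 1 with the covariate (*Tpm2*). Over all genes, those passing there went from 120 to 1259, 1036, 1386 and 196. Those called went from 109 to 588, 567, 583 and 174. In sgRNA cells, members called went from 0 to 1 and passing from 0 to 2 with the block, 1 and 3 with block and covariate, and 1 and 2 with the block in DESeq2. Over all genes, those called there went from 92 to 513, 538 and 504. Those passing went from 95 to 1105, 1187 and 1221. With the block and a library or number left out, members called and passing ranged from 0 to 4 and 2 to 6 (averaged), 0 to 1 and 0 to 2 (empty vector) and 0 to 2 and 0 to 2 (sgRNA). Without the block, members passing on average ranged from 0 to 1. For the replicate number, *Tpm2* was no longer called with the covariate (0.27), and *Tpm1* was called with total counts without TMM (0.66). The block, the covariate with the block, and DESeq2 with the block changed no call of a member for the averaged sgRNA effect.

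Signs turned mainly for the averaged sgRNA effect. With total counts without TMM, which moved the median of all genes by 0.28, it was 0.14 for *Acta2*, 0.032 for *Tagln*, 0.17 for *Cald1* and 0.21 for *Tpm1*, all below that median. With the covariate it was 0.73 for *Acta2*, 0.47 for *Tagln* and −0.32 for *Tpm2*, and with block and covariate 0.13 for *Acta2*, −0.17 for *Myh11* and −0.31 for *Tpm2*. With the block it was −0.089 for *Myh11* without stimulated empty vector replicate 5, 0.025 for *Cald1* without replicate 3, and 0.018 for *Acta2* and −0.12 for *Myh11* without replicate 5. Without the block and with a library or number left out, it ranged from −0.73 to 0.43 for *Acta2*, −1.01 to 0.37 for *Tagln*, −0.23 to 0.10 for *Cald1* and −0.12 to 0.30 for *Myh11*. The isoproterenol effect then ranged from −1.14 to 0.043 for *Acta2* on average, −1.61 to 0.38 for *Acta2* and −1.10 to 0.67 for *Tagln* in empty vector cells, and −1.61 to 0.75 for *Acta2* in sgRNA cells. With the block, *Tagln* in empty vector cells was 0.14 without stimulated replicate 6 and 0.12 without all of replicate 6. Where no cause is given, the cause was not tested.

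Depth limits the low genes. *Actg2*, *Cnn1*, *Myl9* and *Lmod1* were not testable, and *Tagln* and *Myh11* rest on few counts in several libraries.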

Other observations

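Lists of other muscle and of vascular and immune cells gave few reads. Of 9 skeletal muscle genes, the regulators *Myod1* and *Myf5* had 0 counts and *Myog* 1 over the 16 libraries, while *Acta1* had 433 and desmin (*Des*) 1706. Of 5 cardiac genes, *Myl7* had 0 counts and the others 2 to 11. Of 4 endothelial genes, *Pecam1* had 456 counts and *Cdh5*, *Kdr* and *Tek* 2 to 19. Of 4 macrophage genes, *Ptprc* had 6 counts, *Adgre1* 1 and *Csf1r* 34. *Cd68*, a lysosomal glycoprotein, had 2937 and was higher after isoproterenol by 0.91 (edgeR quasi-likelihood test, adjusted p = 0.00518) on the log2 scale. Among 6 tested brown adipocyte genes, 2 were called higher after isoproterenol, *Ucp1*, the uncoupling protein, by 4.03 (edgeR, adjusted p = 7.36e-06) and *Ppargc1a* by 0.71 (0.0128). In the same fit *Ebf2*, a brown adipocyte transcription factor, passed in the other direction (−0.48, edgeR, adjusted p = 0.0109), and the other 3, *Cidea* (1.19), *Elovl3* (0.25) and *Prdm16* (−0.21), did not pass.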
